A study of Bos taurus with 15 samples.

Results

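Enteroendocrine cells are the hormone-secreting cells of the stomach and gut epithelium. They were chosen here by chromogranin A (CHGA), an acidic protein of the dense-core granules in which peptide hormones are stored. A barcode was selected when it carried at least 10 UMIs of CHGA (unique molecular identifiers, each standing for 1 captured RNA molecule), between 500 and 4000 genes and under 50000 UMIs. The rule selected 139 of the 98443 barcodes within the gene and UMI limits in 11 libraries of abomasum and intestine. The 15 libraries of the series that were analysed held 132361 barcodes within these limits. Every cell below is 1 barcode.

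The libraries were 10x Genomics single-cell RNA libraries of Holstein dairy cattle at the newborn (NB) and the adult (AD) stage. The 7 NB libraries covered 1 stomach chamber (abomasum), the small intestine (duodenum, jejunum and ileum) and the large intestine (cecum, colon and rectum) of 3 calves, and the calf behind each library is not named. The 4 AD libraries came from the duodenum, jejunum, cecum and colon of 1 lactating cow, and no AD abomasum, ileum or rectum was analysed here. The labels name no treatment or altered gene in either stage. The outer muscle was removed from all of these tissues. In the NB tissues a step with EDTA and trypsin preceded further enzymes. In the abomasum these were collagenases, hyaluronidase, dispase and DNase I. In the NB intestine they came from a kit that the study names the Propria Dissociation Kit. AD duodenum and cecum were digested with the Lamina Propria Dissociation Kit, and AD jejunum and colon with the Multi Tissue Dissociation Kit 2. Stage, animal and dissociation therefore cannot be told apart. Each tissue and stage had 1 library, so values are given side by side, with no test and no replicate error, and all intervals (95%) cover counting error only.

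Enteroendocrine cell types are told apart by their main product. In the textbook account, X cells of the acid-secreting stomach make ghrelin, D cells make somatostatin, K cells make GIP, M cells make motilin, L cells make glucagon-like peptides and PYY, N cells make neurotensin, and enterochromaffin cells make serotonin, often with tachykinins. The cells arise from crypt or gland progenitors under a series of transcription factors, and the mix of hormones changes along the gut. Secretion responds to nutrients and bile acids in the lumen through receptors on the cells.

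The libraries held 48674267 to 117505536 UMIs in total, and the selected cells held 1140411 UMIs, from 1408 to 23248 per cell. The reticulum, omasum and liver libraries held no barcode within the limits with 10 UMIs of CHGA, and the salivary gland held 1. No barcode sequence was shared by selected cells of different libraries, and 4 of their sequences also occurred within the limits in another library.

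The NB abomasum gave the most selected cells, 43 of 10004 barcodes (0.430%, interval 0.311 to 0.579). The NB duodenum followed with 17 of 8484 (0.200%, 0.117 to 0.321). The other NB libraries gave 14 of 13105 in the jejunum, 10 of 7566 in the ileum, 9 of 6395 in the cecum, 8 of 4803 in the colon and 6 of 7628 in the rectum, or 0.0787% to 0.167%. Their intervals overlapped one another. In the AD libraries 1 of 10380 barcodes was selected in the duodenum, 11 of 11082 in the jejunum, 10 of 9651 in the cecum and 10 of 9345 in the colon. Over barcodes with EPCAM alone the order was another. The share of these with 10 UMIs of CHGA was 0.725% in the NB abomasum (interval 0.518 to 0.986), 0.359% in the NB duodenum, 0.845% in the NB jejunum and 1.07% in the NB ileum. It was 0.251% to 0.630% in the NB large intestine, and 1.202%, 0.573% and 0.871% in the AD jejunum, cecum and colon. The abomasum interval overlapped those of all these libraries. Dissociation differed between the stages and tissues and can set such shares.

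CHGA chose the cells, so its values are a description. In the NB abomasum a cell held 15 to 679 UMIs of CHGA (median 189). The range was 10 to 761 in the NB duodenum (median 120), 15 to 182 in the jejunum (median 31.5) and 38 to 1072 in the ileum (median 196). It was 10 to 1776 in the NB cecum (median 90), 15 to 2010 in the colon (median 530) and 53 to 1794 in the rectum (median 286.5). In the AD libraries the single duodenum cell held 13, and the ranges were 10 to 252 in the jejunum (median 33), 10 to 1167 in the cecum (median 20.5) and 10 to 2361 in the colon (median 141.5). The highest values stood in the large intestine of both stages, and the ranges of all libraries with more than 1 cell overlapped.

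**Figure D1:**
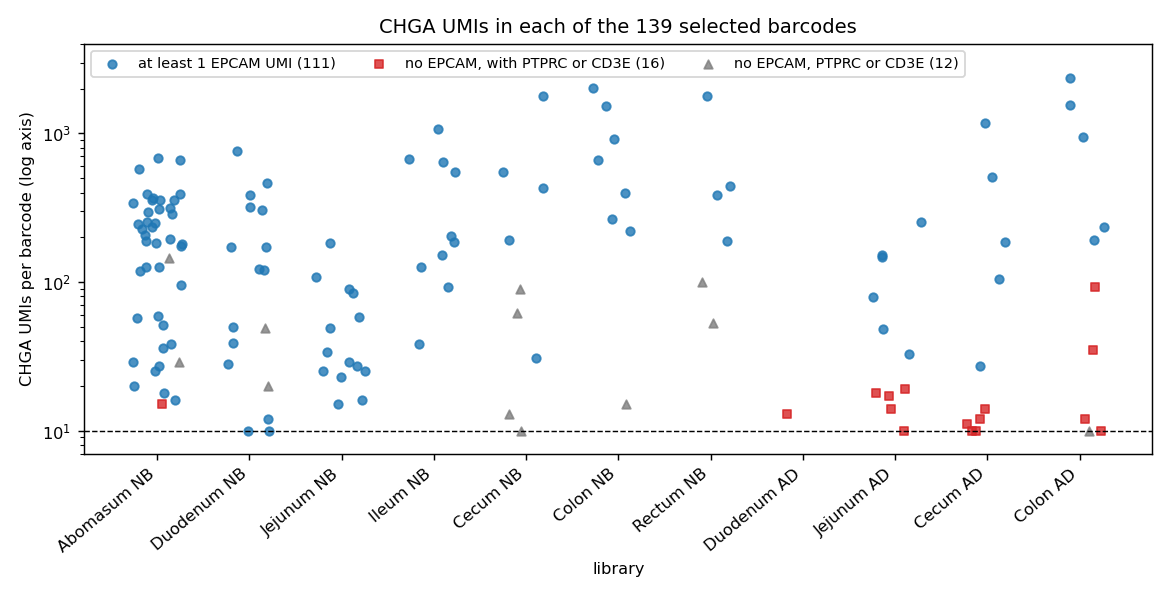
CHGA UMIs (log axis) in each of the 139 selected cells, by library (horizontal axis). Circles mark the 111 cells with an EPCAM UMI, squares the 16 cells without EPCAM but with PTPRC or CD3E, and triangles the other 12. The dashed line is the limit of 10 UMIs, and 15 of the 16 squares lie in the AD libraries.

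The label held for the NB cells more than for the AD cells. EPCAM, which marks epithelium, had at least 1 UMI in 95 of 107 NB cells and in 16 of 32 AD cells. The secretory granule protein SCG3, which the rule did not use, was found in 73 of these 95 NB cells and in 13 of these 16 AD cells. Of the 16 AD cells without EPCAM, 15 carried the leukocyte gene PTPRC or the T cell gene CD3E, 1 carried SCG3 and 1 carried 10 UMIs of a hormone. Their CHGA values were 10 to 92 (median 12.5), against 27 to 2361 (median 189) in the AD cells with EPCAM.

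The AD cells without EPCAM had 15 to 112 UMIs of the 10 immune markers together (median 33.5), of which 7 genes were found and MS4A1, CD68 and CPA3 were at 0. The sums were 0 to 104 (median 2) in the AD cells with EPCAM and 0 to 325 (median 1) in the NB cells with EPCAM. None of the 10 neural markers had a UMI in the AD cells without EPCAM. Most of these AD barcodes thus carried leukocyte markers and none of the granule gene SCG3, and they are part of the AD levels below unless cells with EPCAM are named.

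The limit of 10 UMIs divided the stages differently. In the NB libraries 24 barcodes lay just below it with 5 to 9 UMIs of CHGA, of which 14 carried EPCAM and 10 carried 10 UMIs of a hormone. In the AD libraries 20 barcodes lay there, of which 0 carried EPCAM, 19 carried PTPRC or CD3E without EPCAM, and 0 carried 10 UMIs of a hormone. Just above the limit, with 10 to 19 UMIs, lay 11 NB and 14 AD cells, and all 14 of the latter lacked EPCAM.

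Of 36 listed peptide hormone genes, 33 had an identifier in the files, 13 reached 10 UMIs in at least 1 cell, and 11 had no UMI in the selected cells, among them NPY, VIP, GAL, INS and NMU. Leaving aside the guanylins, which other epithelial cells also make, 60 of the 139 cells held at least 10 UMIs of a hormone, 46 of them NB and 14 AD. Without the cells marked as possible doublets (below) 39 NB and 3 AD cells were left, the latter led by GIP in the jejunum and by TAC1 in 2 colon cells. The leading hormone, the one with the most UMIs in a cell, was TAC1 in 17 cells, GCG in 12, SST in 9, GHRL in 6, PYY in 6, MLN in 4, NTS in 3, GIP in 2 and PPY in 1. The other 79 cells held at most 9 UMIs of any of these, and 56 of them carried EPCAM.

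**Figure D2:**
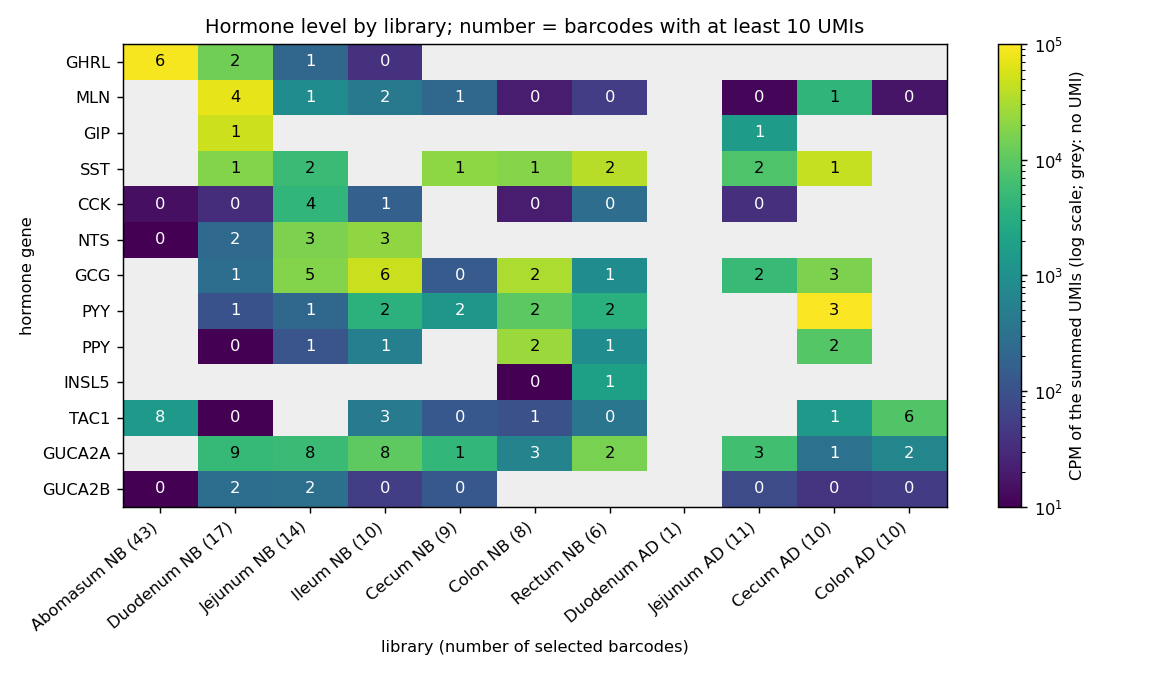
Level of 13 hormone genes (vertical axis) in the selected cells of each library (horizontal axis, number of cells in brackets), as CPM of their summed UMIs on a log color scale, with grey for no UMI. The number in a square counts the cells with at least 10 UMIs; GHRL leads in the abomasum, MLN in the NB duodenum and GCG in the NB jejunum, ileum and colon.

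Levels below are UMIs of a gene summed over the selected cells of a library and scaled by all their UMIs as counts per 1000000 (CPM). The hormone with the highest level was GHRL in the NB abomasum (87068 CPM), MLN in the NB duodenum (71112), GCG in the NB jejunum (18198), ileum (47869) and colon (32466), and SST in the NB cecum (21170) and rectum (36538). In the AD libraries it was SST in the jejunum (7957), PYY in the cecum (93447) and TAC1 in the colon (8251). In the AD cells with EPCAM alone these levels were 13990, 121119 and 14399 CPM. With so few cells, 1 cell often set a level. In 57 of 58 pairs of hormone and library the level moved beyond its counting interval when the richest cell was left out, and in 32 it became at least 4-fold lower. When each hormone was counted without its own richest cell, another hormone led in the NB cecum (PYY, 17 UMIs) and the AD jejunum (GUCA2A, 255 UMIs). Without the cells marked as possible doublets PYY led in the NB rectum (110 UMIs) and GIP in the AD jejunum (132 UMIs), and the AD cecum held 1 hormone UMI, of GUCA2A.

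Ghrelin (GHRL), the stomach hormone that promotes hunger and growth hormone release, was found in a few abomasum cells at very high counts. The 6 selected cells with 10 or more UMIs held 7236, 6469, 4761, 3988, 856 and 444, up to 51.7% of the UMIs of a cell. The other 37 abomasum cells held 0 to 2. Outside the abomasum, GHRL stood at 2360 and 36 UMIs in 2 selected NB duodenum cells and at 21 in 1 selected NB jejunum cell. No selected AD cell had a UMI of it. Among unselected barcodes, 3 of the NB jejunum held 271 to 635 UMIs of GHRL. The level in other epithelial barcodes (EPCAM present, CHGA and PTPRC absent) of the abomasum was 159 CPM, and these barcodes include 2 with 8306 and 1687 UMIs of GHRL.

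Most ghrelin-rich barcodes of the abomasum lay outside the CHGA rule. Of 15 barcodes with at least 100 UMIs of GHRL, the 6 selected cells held 20 to 59 UMIs of CHGA. The other 9 held 0 to 7, 2 of them none, with 199 to 10796 UMIs of GHRL and 53617 together. Only 31.5% of all GHRL UMIs within the limits fell in selected cells, against 96.6% for SST, 95.8% for GCG, 98.3% for GIP, 98.3% for PPY, 93.7% for PYY and 92.1% for TAC1. The share was 79.0% for NTS, 66.1% for MLN, 53.8% for INSL5 and 22.6% for CCK.

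**Figure D3:**
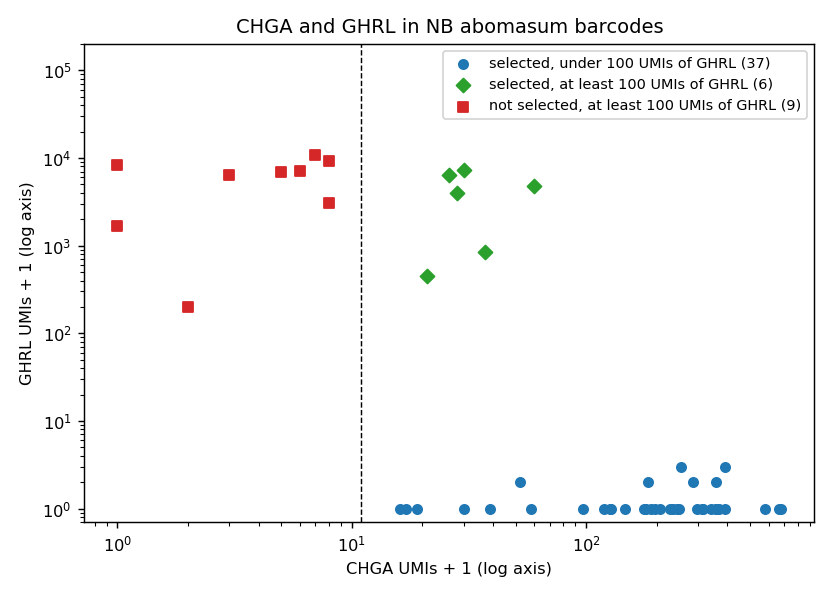
GHRL against CHGA UMIs (both plus 1, log axes) in the 43 selected NB abomasum cells and in the 9 unselected barcodes with at least 100 UMIs of GHRL (squares). Diamonds are the 6 selected cells with at least 100 UMIs of GHRL; no cell joined high GHRL with more than 59 UMIs of CHGA, and the dashed line is the limit of the rule.

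The ghrelin cells differed from the other 37 selected abomasum cells in some other genes too. RESP18, a granule protein, stood at 8271 CPM (7598 to 8987) in the 6 selected ghrelin cells, 11408 in the 9 unselected ones and 671 (564 to 793) in the other selected cells. SCG3 stood at 4098, 4235 and 1075 CPM, and TTR, the thyroxine carrier transthyretin, at 5108, 7696 and 822. The 2 ghrelin sets lay on the same side of the other cells for these 3 genes. SCG2 did not on this scale, at 386, 1027 and 462 CPM, and PCSK1 stood at 327, 306 and 414 CPM with overlapping intervals. GHRL itself stood at 352716, 483158 and 38.9 CPM and is part of the totals. All other CPM of the ghrelin sets, here and below, are therefore lowered against the other cells. The order of SCG2 and PCSK1 depends on this scaling, and levels without the GHRL UMIs are not given here. CHGA went the other way, at 2910, 288 and 43076 CPM, as the rule and the choice of sets in part require.

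Of the factors and hormones of other endocrine cells, some were lower in the ghrelin cells and others were not. FEV, a transcription factor of serotonin cells, had 1 UMI in the 6 selected ghrelin cells, 0 in the 9 unselected ones and 88 in the other 37. TAC1, a tachykinin gene, had 4, 0 and 390 UMIs. INSM1, a zinc finger factor of endocrine progenitors, had 4, 3 and 90. ISL1 stood at 223, 63.1 and 131 CPM and NEUROD1 at 44.6, 90.1 and 112 CPM, and for each of these the intervals of the ghrelin sets overlapped that of the other cells. MBOAT4, the enzyme that acylates ghrelin, was found with 3 and 8 UMIs in the 2 ghrelin sets and 1 in the other selected cells.

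The remaining abomasum cells were mostly without a main peptide. TAC1 led in 8 of them with 12 to 112 UMIs (28, 45, 23, 112, 50, 12, 35 and 33), and these 8 held 182 to 356 UMIs of CHGA. No listed hormone reached 10 UMIs in 29. Gastrin (GAST), the acid-stimulating hormone of the lower stomach, had no UMI in the selected abomasum cells and 16 UMIs in the whole library, and no SST was found in these cells, where 0 UMIs allow a level of up to 3 UMIs (10.99 CPM), the limit used for 0 UMIs throughout. A single unselected abomasum barcode, with 6 UMIs of CHGA, held 292 UMIs of SST. HDC, the histamine-making enzyme of enterochromaffin-like cells, had 18 UMIs in 1 cell and 1 to 2 in 3 others of the abomasum. The part of the abomasum that was sampled is not stated in the sources used here.

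Motilin (MLN), which drives contractions of the fasting gut, led in the NB duodenum. It stood at 10271, 1866, 495 and 13 UMIs in 4 of 17 cells, and the richest held 81.2% of the MLN UMIs of the selected cells. In the same library 3 unselected barcodes held 105 to 1601 UMIs of MLN, 2397 together. GHRL was also present in 3 of these cells, at 2360, 36 and 3 UMIs. Among selected cells MLN reached 123 UMIs in 1 cell of the NB jejunum and 12 and 32 in 2 cells of the NB ileum. It reached 12 in 1 NB cecum cell and 404 in 1 AD cecum cell. Most MLN of the NB jejunum lay outside the rule. There 3 unselected barcodes, all with EPCAM and SCG3 and at most 8 UMIs of CHGA, held 623 to 2137 UMIs, 4054 together. Of all 9 selected cells with 10 UMIs of MLN, the counts ran from 12 to 10271, and 8 were NB.

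GIP, the incretin of K cells, was found in 2 cells of very different level. A NB duodenum cell held 8946 UMIs, 39.0% of its UMIs, and an AD jejunum cell held 132. The former also held 22 UMIs of NTS and the latter 49 of GCG. No other selected cell held more than 8.

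Somatostatin (SST), which inhibits the release of other hormones, was spread widely and in single cells. The 10 cells with 10 UMIs came from 7 libraries. NB values were 3209 in the duodenum, 13 and 723 in the jejunum, 1191 in the cecum, 1845 in the colon, and 856 and 514 in the rectum. AD values were 33 and 637 in the jejunum and 4376 in the cecum. SST led in 9 of these cells and made up to 41.6% of the UMIs of 1 cell. It was absent from the selected cells of the NB abomasum, NB ileum, AD duodenum and AD colon. Other epithelial barcodes stood at most at 0.703 CPM.

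The proglucagon gene (GCG) gives glucagon-like peptides in L cells, which slow gut transit and promote insulin release and mucosal growth. It was the hormone of most cells besides the guanylins, with 10 UMIs in 20 cells of 7 libraries. In the NB jejunum 5 of 14 cells held 1076, 514, 417, 349 and 221 UMIs. In the NB ileum 6 of 10 cells held 1934, 1777, 581, 533, 309 and 45. The large intestine had fewer, with 1936 and 1297 in 2 of 8 NB colon cells, 33 in 1 NB rectum cell, and 746, 542 and 298 in 3 AD cecum cells. The NB duodenum had 34 in 1 cell, and the AD jejunum 370 and 49 in 2 cells. The NB ileum and colon levels of 47869 CPM (46575 to 49191) and 32466 CPM (31359 to 33602) exceeded the NB jejunum level of 18198 CPM (17502 to 18914) beyond counting error, but without the richest cell of each library the levels were 32842, 15307 and 11172 CPM.

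Neurotensin (NTS), which slows gastric emptying, and cholecystokinin (CCK), which contracts the gallbladder, were found in the NB small intestine. NTS stood at 1323, 552 and 461 UMIs in 3 NB jejunum cells, at 2040, 178 and 122 in 3 NB ileum cells and at 22 and 15 in 2 NB duodenum cells. No large intestinal or AD cell among those selected had a UMI of NTS. CCK stood at 318, 166, 88 and 31 UMIs in 4 NB jejunum cells and at 17 in 1 NB ileum cell. All 5 CCK cells also held 10 UMIs of GCG and 4 of them 10 of NTS, and 6 of the 8 NTS cells held GCG. A NB jejunum cell held 10 UMIs of each of 5 hormones (NTS 552, GCG 349, CCK 318, PYY 22 and PPY 16).

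PYY, which with NPY and PPY forms a peptide family and slows the upper gut, was highest in the AD cecum. The values there were 5611, 2862 and 738 UMIs in 3 cells. NB values were 876 and 106 in the colon, 378 and 17 in the ileum, 110 and 15 in the rectum, 57 and 12 in the cecum, 22 in the jejunum and 13 in the duodenum. PPY, the pancreatic polypeptide gene, neighbours PYY on the same chromosome of the RefSeq annotation (ARS-UCD2.0) with 0 protein-coding genes between them. PPY stood at 1942 and 529 UMIs in 2 NB colon cells, at 846 and 10 in 2 AD cecum cells, at 48 in the NB ileum, 32 in the NB rectum and 16 in the NB jejunum. Reads shared between these related genes were not checked.

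Among the selected cells PPY was found within GCG cells. Outside them 1 abomasum barcode, with 6 UMIs of CHGA, held 14 UMIs of PPY and under 10 of GCG. All 7 cells with 10 UMIs of PPY also held 10 of GCG, and 6 of them 10 of PYY. GCG and PYY reached 10 UMIs together in 8 cells, of 20 with GCG and 13 with PYY. INSL5, a relaxin-family peptide of L cells in the colon, reached 10 UMIs in 1 cell, from the NB rectum, with 70 UMIs beside PYY 110, GCG 33 and PPY 32. SST was joined by 10 UMIs of MLN in 3 cells and of PYY in 2. The AD cecum SST cell held all of these (SST 4376, PYY 738, MLN 404). Of the 139 cells, 24 held 10 UMIs of at least 2 of the hormones and 13 of at least 3. Doublet scores, computed from simulated doublets, marked 20 of 107 NB and 16 of 32 AD cells as possible doublets, among them 13 of the 16 AD cells with EPCAM and the AD cecum SST cell. The method sets the share over all barcodes, from 185 of 4803 in the NB colon to 1374 of 13105 in the NB jejunum. In the AD duodenum, jejunum, cecum and colon it was 862 of 10380, 982 of 11082, 745 of 9651 and 699 of 9345. The share among other epithelial barcodes is not given here. What share of the joint counts comes from barcodes with more than 1 cell was not tested.

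**Figure D4:**
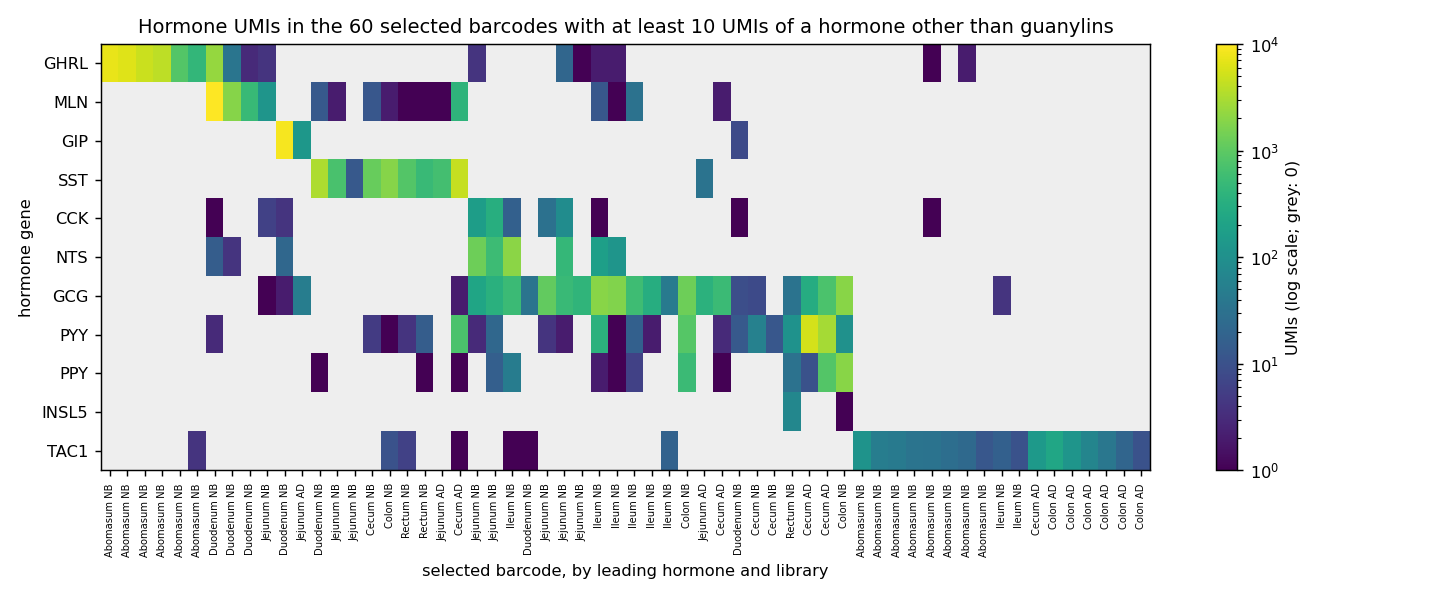
UMIs of 11 hormone genes (vertical axis; log color scale, grey for 0) in the 60 selected cells with at least 10 UMIs of a hormone other than the guanylins, 1 column per cell, ordered by leading hormone and library. Of 24 cells with at least 2 hormones, many join GCG with CCK, NTS, PYY or PPY.

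The tachykinin gene TAC1, the precursor of substance P, reached 10 UMIs in 19 cells, 8 of the NB abomasum, 3 of the NB ileum (18, 17 and 10), 1 of the NB colon (10), 1 of the AD cecum (142) and 6 of the AD colon (231, 120, 67, 38, 20 and 10). CHGA, which chose the cells, ran from 92 to 2361 (median 249) where TAC1 led, from 23 to 761 where GCG led, from 10 to 510 where PYY led, and up to 2010 in the cells without a hormone. In the AD colon all 5 cells with EPCAM were led by TAC1, as was 1 cell with PTPRC and CD3E that held 13 UMIs of SCG3. No UMI of GCG, PYY, PPY, SST or NTS was found in the 10 AD colon cells, where 0 UMIs allow up to 50.9 CPM.

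Serotonin synthesis genes were low. TPH1, the rate-limiting enzyme of serotonin synthesis outside the brain, had 41 UMIs in 25 cells, and these were 89.1% of all its UMIs within the limits. DDC, the decarboxylase that completes serotonin, had 227 UMIs in 79 cells. The vesicle transporters SLC18A1 and SLC18A2 had 5 and 7 UMIs. TPH1 stood at 134 CPM in the 9 TAC1-led cells of the intestine (9 UMIs) and at 87.9 CPM in the 27 abomasum cells with EPCAM and no hormone (14 UMIs). At these counts a cell without a TPH1 UMI cannot be taken to lack it.

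Guanylin (GUCA2A), which regulates fluid and salt secretion through guanylate cyclase C, reached 10 UMIs in 37 selected cells but is no hormone of these cells alone. Only 1.24% of its UMIs within the limits fell in them, and 2155 unselected barcodes reached 10 UMIs. Its level against other epithelial barcodes differed in direction between libraries. GUCA2A was higher in the selected cells of the NB duodenum (4769 against 1934 CPM), jejunum (5365 against 1478), ileum (10298 against 5528) and AD jejunum (6092 against 1982, and 10712 in its cells with EPCAM). It was lower in the AD cecum (314 against 14107), AD colon (696 against 16198) and NB colon (620 against 2325). The NB rectum and cecum values rested on 1 cell each, with 560 of 582 and 245 of 254 UMIs. Uroguanylin (GUCA2B) had 119 UMIs, at 10 or more in 4 NB cells.

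The guanylin counts of cells without another hormone were high. In the 29 intestinal cells with EPCAM and no hormone at 10 UMIs, GUCA2A stood at 9149 CPM and was found in 27, against 4159 CPM in the 22 cells led by GCG, PYY, PPY or NTS and 935 CPM in the 9 SST-led cells. The same 29 cells held 171 of the 300 UMIs of NEUROD1 and 148 of the 395 UMIs of INSM1, factors of endocrine differentiation. These counts are not scaled by the UMIs that the 29 cells held. CHGA stood at 41924 CPM in them. SCG2 (26.2 CPM), SCG5 (49.1 CPM) and CPE (111 CPM) stood lower in them than in the cells led by GCG, PYY, PPY or NTS (379, 309 and 918 CPM), while the intervals of SCG3 overlapped (373 and 473 CPM).

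The remaining hormones were sparse. POMC, the precursor of ACTH and endorphin, had 89 UMIs in 57 cells, never 10 in a cell, and 0.630% of all its UMIs, and up to 20.9% of the leukocyte barcodes of a library had a UMI of it. TAC3 had 50 UMIs in 20 cells, 23 of them in the 6 ghrelin cells. SCT, NPW and NMB were not analysed here. As a background for the other hormones, the share of other epithelial barcodes with 10 UMIs in a library was at most 0.105% for GHRL, SST, GIP, MLN, NTS, GCG, PYY, PPY, INSL5 and TAC1, but up to 4.68% for CCK. Leukocyte barcodes with 10 UMIs numbered 0 for these genes in each library, except for 1 with NTS and up to 7 with CCK.

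**Figure D5:**
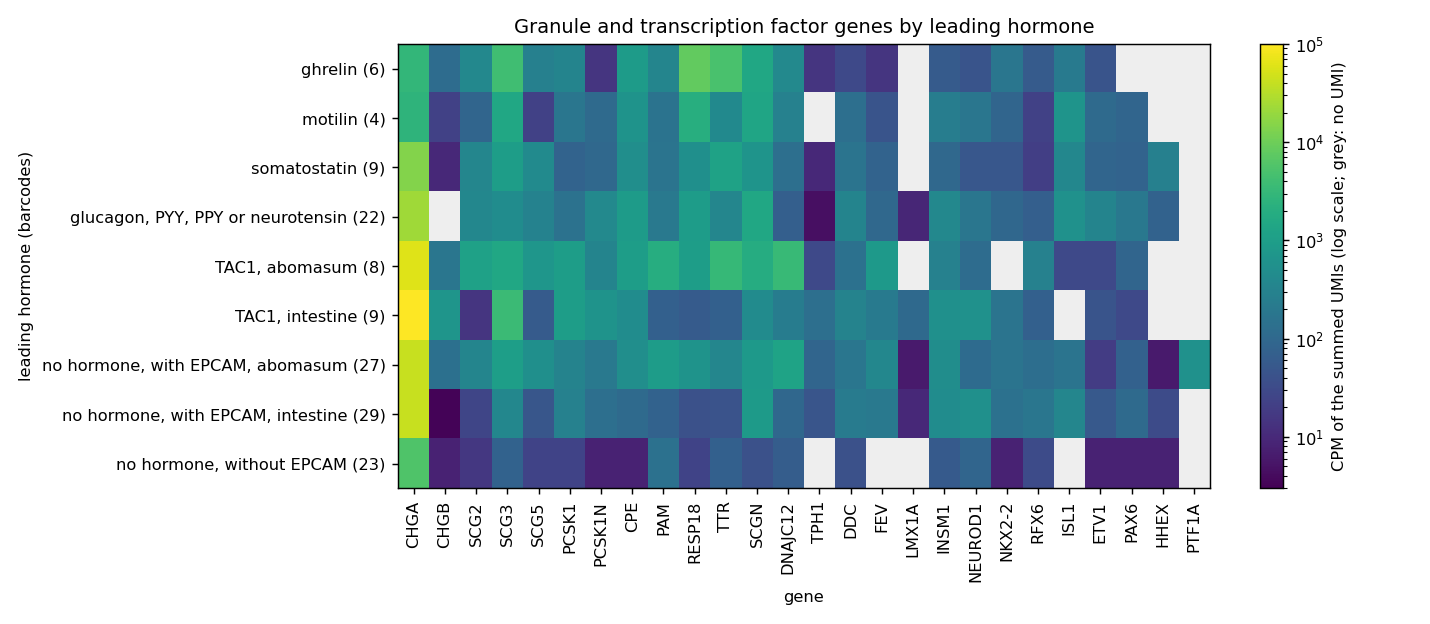
Level (CPM of summed UMIs, log color scale, grey for no UMI) of granule and transcription factor genes (horizontal axis) in the selected cells grouped by their leading hormone (vertical axis, number of cells in brackets). RESP18 is highest in the ghrelin row, HHEX in the somatostatin row and CHGB in the intestinal TAC1 row.

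Of 28 listed genes of the secretory granule 26 had a UMI in the selected cells, 20 had at least 20, and 7 were at least 2-fold higher than in other epithelial barcodes in more than 5 of the 10 libraries with more than 1 cell. Of all 5937 genes with 20 UMIs in the selected cells 2.41% were so, and the median of all genes was 0.03 to 0.39 on the log2 scale by library. The minimum of 20 UMIs applied to the selected cells alone, and CHGA, which chose them, is counted among these genes. SCG3 (1126 UMIs in 93 cells), the prohormone convertase PCSK1 (322 in 81 cells) and the carboxypeptidase CPE (524 in 83 cells), which trim prohormones, were at least 2-fold higher in each of the 10 libraries, as were 0.253% of all genes. The convertase inhibitor PCSK1N and the priming factor CADPS were so in 9, the chaperone SCG5 in 8 and secretogranin SCG2 in 7. The second convertase, PCSK2, had no UMI, and chromogranin B (CHGB) had 87, in 28 cells. Of these, 53 fell in the 17 TAC1-led cells.

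The amidating enzyme PAM differed between the TAC1-led cells of stomach and gut. It was 2-fold higher than in other epithelial barcodes in 3 of 10 libraries, with log2 ratios from -0.14 to 3.59. PAM stood at 1956 CPM in the 8 TAC1-led abomasum cells and at 74.2 CPM in the 9 TAC1-led intestinal cells, 7 of them AD. In the 6 ghrelin cells of the abomasum it stood at 342 CPM (217 to 512). That overlapped the selected cells of the AD cecum (284 CPM, 189 to 410) and NB cecum (196 CPM, 97.6 to 350). For the exocytosis genes SNAP25, SYT7, RAB3B, PTPRN, SYT13, KIF1A, RAB3C, STX1A, UNC13B and RAB3D the median over libraries lay between 0 and 0.98 on the log2 scale, and none was 2-fold higher in more than 5 libraries.

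Of 33 listed transcription factors 32 were in the files, 28 had a UMI in the selected cells and 21 had at least 20. NEUROD1 (300 UMIs in 76 cells), INSM1 (395 in 90 cells) and NKX2-2 (125 in 61 cells) were at least 2-fold higher than in other epithelial barcodes in all 10 libraries, as were 0.253% of all 5937 genes with 20 UMIs. ISL1 and FEV were so in 9, and PAX6, RFX6 and ETV1 in 7, against 1.94% of all genes in 7 or more. NEUROG3, the transient factor that starts the endocrine fate, had no UMI in the 139 cells and none in the other epithelial barcodes of the 11 libraries, so its level could not be compared. ATOH1 had no UMI in the 139 cells either. The intestinal factor CDX1 was at least 2-fold lower in 6 of the 10 libraries (1.35% of all genes were so in more than 5), and the other 12 factors with 20 UMIs were 2-fold higher in 0 to 4.

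Some factors followed the hormone. HHEX, known from somatostatin cells, had 28 of its 57 UMIs in the 9 SST-led cells, where 7 held it. Of its other UMIs 16 stood in 1 NB ileum cell, and the selected cells of that library held no SST. ETV1 had 70 of 112 UMIs in the 22 cells led by GCG, PYY, PPY or NTS. ISL1 had 122 of 345 UMIs in these 22 cells, 1 UMI in the 17 TAC1-led cells and none in the intestinal ones. It also stood at 649 CPM (435 to 932) in the 4 MLN-led cells, so it was not particular to the 22. LMX1A, a factor of serotonin cells, had 13 UMIs, 7 of them in the 9 TAC1-led intestinal cells. FEV stood at 830 CPM in the TAC1-led abomasum cells and at 208 CPM in the TAC1-led intestinal cells. These groups were formed by the hormone counts of the same cells and hold few cells each, so the values are descriptions. The 8 TAC1-led abomasum cells were all NB and 7 of the 9 intestinal ones AD, so tissue and stage cannot be told apart between them.

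Receptors were barely measured. Of 38 listed sensor and receptor genes 36 were in the files, 21 had a UMI and 5 had at least 20. The bile acid receptor GPBAR1 (176 UMIs in 46 cells) was at least 2-fold higher than in other epithelial barcodes in 7 of 10 libraries, as 1.94% of all genes were in 7 or more. The potassium channel subunit ABCC8 (80 UMIs in 41 cells) was so in 5. The fatty acid receptors FFAR1, FFAR2 and FFAR3 and the lipid receptor GPR119 had no UMI, which at this depth does not show that they are absent.

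The whole profile of the selected cells was compared with other epithelial barcodes of the same library in the NB abomasum, the one library with at least 20 cells. A gene was called when its CPM, with 50 CPM added to both sides, differed at least 4-fold, among genes with at least 20 UMIs in the cells. Of 1744 genes 61 were called higher (3.5%) and 9 lower (0.516%) in the 43 cells, whose median depth was 4954 UMIs against 12397. The 61 became 251 with 10 CPM and 16 with 200 CPM added in place of 50, and 20 with cells of at least 5 UMIs of CHGA, where the NB duodenum also had to meet the fold. The median over all genes was 0.84 on the log2 scale, and chymosin, pepsin and lysozyme genes filled much of the other barcodes. After CHGA, which chose the cells, the largest differences were those of GHRL (8.70 on the log2 scale), RESP18 (5.56), SCG3 (5.17), TAC1 (4.90), DIRAS3 (4.72), DNAJC12 (4.70), TTR (4.51), the calcium sensor SCGN (4.47), TM4SF4 (3.75), CPE (3.70), PEG3 (3.63), PAM (3.59), GPX3 (3.50) and CDKN1C (3.48). DIRAS3, PEG3 and CDKN1C are known as imprinted genes. The 9 lower genes were those of secretory products, PGA5, LYZ1, LYZ2, LYZ3, CYM, TFF2, AGR2, CLCA1 and CXCL17. The lysozyme genes are near-identical copies, so the split of reads among them is uncertain.

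Of 13 granule genes tested 8 were higher (SCG2, SCG3, SCG5, PCSK1, PCSK1N, CPE, PAM and PTPRN), and of 9 factors tested 3 were (INSM1, FEV and SOX4). Over all 1744 genes 3.5% were called higher and 0.516% lower. Genes entered by their UMIs in the selected cells, so those near 0 in other epithelium were tested only where they were high, and the counts in part follow from this. Of 3 neural markers tested 2 were higher (UCHL1 and STMN2), genes that endocrine cells also express. Of 4 gastric genes tested 2 were lower (CYM and PGA5), as was CLCA1, the goblet gene tested. None of the 4 epithelial, 1 immune, 3 stromal, 5 stress, 3 sensor and 2 amine genes tested was called. With 50 CPM added, a gene of low level in the cells cannot be called higher even against 0. This held for the sensor genes GPBAR1, ABCC8 and CCKBR (121, 95.3 and 73.3 CPM). It also held for the amine genes DDC and HDC (136 and 84.3 CPM) and the factors NKX2-2, RFX6 and NEUROD1 (139, 128 and 95.3 CPM). The granule genes tested and not called were all of this kind. They were CHGB, CADPS, SYT7, RAB3C and RAB3D (136, 139, 106, 91.6 and 73.3 CPM). That these were not called higher was thus fixed by the method.

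Abomasum cells were also compared with those of the NB small intestine. Genes called at 4-fold against each of the NB duodenum, jejunum and ileum numbered 27 higher (0.669% of 4035) and 20 lower (0.496%) in the abomasum. They became 65 and 50 with 10 CPM added and 10 and 4 with 200 CPM. Higher were CYM (30768 CPM against 0 UMIs in the 3 intestinal libraries), LYZ2, LYZ1, LYZ3, PGA5, the proton pump subunits ATP4A and ATP4B, IFI6, CBLIF (intrinsic factor) and ANXA10, and of the lists GHRL, SCG5 and PAM. Of 14 hormones tested 1 was higher and 4 were lower, of 17 granule genes 2 were higher, and of 18 factors none was called. With 50 CPM added, genes of low level cannot be called even against 0, so missing calls do not show equal levels. This held for the intestinal factor CDX2, at 0 UMIs in the abomasum cells. It stood at 61.9, 84.7 and 64.7 CPM in the NB duodenum, jejunum and ileum, with counting intervals apart from that of the abomasum. CYM stood at 237704 CPM in the other epithelial barcodes of the abomasum and was found in all its selected cells, at 32 to 4842 UMIs, the highest in a cell marked as a possible doublet. The part of free RNA and doublets in these gastric genes was not tested. Lower were GUCA2A, both PLA2G2A genes, REG4, CRYAB, MLN, ZFAND2A, LGALS2, GCG and TFF3. NTS was also lower in the abomasum, as were 3 of the 8 stress genes tested (FOS, ATF3 and DNAJB1), against 0.496% of all genes.

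The stress list differed between libraries. The 8 immediate early and heat shock genes of this list stood at 3525 CPM in the abomasum cells and at 11506, 23224 and 19774 in the NB duodenum, jejunum and ileum. The NB cecum, colon and rectum stood at 36030, 16513 and 28937, and the AD duodenum, jejunum, cecum and colon at 9910, 2518, 5943 and 15381. AD was lower than NB beyond counting error in the jejunum and cecum, while the intervals of the stages overlapped in the duodenum and colon. The AD cells with EPCAM alone stood at 1733, 3628 and 14946 CPM in the jejunum, cecum and colon. Other epithelial barcodes stood at 1862 to 8008 CPM, lower than all selected cells of each library, though at 1942 CPM in the AD jejunum not below its selected cells with EPCAM. The part of dissociation in these levels was not tested.

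The stages could be compared over all genes in the jejunum alone, where each had at least 10 cells. Of 1556 genes 40 were called higher (2.57%) and 67 lower (4.31%) in the 11 AD than in the 14 NB cells, which became 65 and 110 with 10 CPM added and 9 and 25 with 200 CPM. The higher genes were led by UBD, GIP, CD52, 5_8S_rRNA, GIMAP7, CD3E, ARHGDIB, GIMAP8, S100A4 and ZFP36L1. Most of these came from the 5 AD cells without EPCAM, which held 226 of 240 UMIs of UBD, 127 of 129 of CD52, 43 of 45 of CD3E and all 33 of S100A4. GIP came from 1 cell with EPCAM. Of 8 immune markers tested 4 were higher in AD (CD3E, CD52, CORO1A and JCHAIN). With the 6 AD cells that carry EPCAM alone, and the minimum of 10 cells waived, 10 genes were higher and 78 lower.

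Lower in the AD jejunum were NTS, CCK, ATF3, APOE, TUBA1A, EGR1, HSPB1, ZFAND2A, MLN and NR4A1. For MLN, 123 of the 125 UMIs of the selected NB cells came from 1 cell, while 3 unselected NB barcodes held 4054. Its log2 ratio turned from -3.91 to 0.11 with at least 20 UMIs of CHGA and to 0.0604 with mixed barcodes left out. NTS stood at 2336 UMIs (16490 CPM) in the NB cells and at 0 in the AD cells, which allows up to 35.6 CPM, and CCK at 612 and 3 UMIs. The same direction held with the AD cells that carry EPCAM, with 0 UMIs of NTS and 3 of CCK. Of the 8 stress genes 6 were lower in AD (FOS, JUN, FOSB, EGR1, ATF3 and HSPA1A), against 4.31% of all genes. Of 3 granule genes tested none was called, nor was any of 8 factors. Some stood too low in both stages to be called with 50 CPM added, such as NKX2-2 at 106 CPM in NB and 71.3 CPM in AD.

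Hormones of the other tissues with both stages are given side by side. In the cecum GCG stood at 142 CPM in 9 NB cells (8 UMIs) and 16105 CPM in 10 AD cells, PYY at 1315 and 93447 CPM, and PPY at 0 UMIs, which allows up to 53.3 CPM, and 8702 CPM. SST stood at 21170 and 44381 CPM, from 1 cell in each stage. The 5 AD cecum cells with EPCAM held all of the SST, PYY and GCG, and all 5 were marked as possible doublets. Without the marked cells the AD cecum held no UMI of GCG, PYY, PPY, SST or MLN and no cell with EPCAM. GCG, PYY, SST and MLN then had UMIs in the NB cecum alone, which gives no direction of stage.

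In the colon the order was the other way. GCG stood at 32466 CPM in 8 NB cells, PYY at 9836, PPY at 24699 and SST at 18442, all at 0 UMIs in 10 AD cells, which allows up to 50.9 CPM. TAC1 stood at 100 CPM in NB and 8251 CPM in AD (10 and 486 UMIs). The NB values of GCG and PYY came nearly all, and that of PPY all, from 2 cells, and SST from 1. Of the 8 NB colon cells 5 were marked as possible doublets, among them the SST cell and 1 of those 2 cells, and without them SST had no UMI in either stage while GCG, PYY and PPY remained higher in NB. In the duodenum the single AD cell, without EPCAM, held no hormone UMI, and 0 UMIs in its 4238 UMIs allow up to 708 CPM, so no comparison of stages was possible there.

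Along the NB intestine the hormones were compared as ranges over the 3 small and the 3 large intestinal libraries. No NB large intestinal library had 10 cells, so no call over all genes was made between these regions. NTS stood at 231 to 21612 CPM in the small and at 0 in the large intestine, and GHRL at 36.9 to 13491 CPM and 0. MLN stood at 416 to 71112 CPM in the small and 20.0 to 213 CPM in the large intestine. Unselected barcodes are not in these levels, and 3 of the NB jejunum held 4054 UMIs of MLN. For NTS the counting intervals of the regions did not overlap. For GHRL and MLN those of the nearest libraries did, in the ileum (36.9 CPM, 10.1 to 94.6, and 416 CPM, 303 to 556) and the cecum (0 UMIs, which allow up to 53.3 CPM, and 213 CPM, 110 to 373). GCG (281 to 47869 and 142 to 32466 CPM) and PYY (101 to 3676 and 1315 to 9836 CPM) overlapped. SST stood at 0 to 18047 CPM in the small and at 18442 to 36538 CPM in the large intestine, and the counting intervals of the nearest libraries, duodenum and colon, overlapped. The SST cells of the NB colon and rectum were all marked as possible doublets, and without marked cells both stood at 0. GUCA2A overlapped as well, at 4769 to 10298 and 620 to 15522 CPM. Different tissues are not replicates, and many of these levels rest on 1 or 2 cells.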

How the data were processed

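The deposited values are raw UMI counts per gene and barcode, which the authors made with Cell Ranger 3.1.0 (named in the submitters' processing notes) on the ARS-UCD1.2 cattle genome from 10x Genomics 3′ libraries. The annotation release is not given in the sources used here. Each library lists 27270 genes, without normalization, and total counts per library were 48674267 to 117505536 UMIs.

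From these counts, barcodes were chosen by the rule above, CPM were taken over the UMIs summed across the chosen cells of a library, and exact Poisson (levels) and Clopper-Pearson (shares) intervals were given. With 1 library per tissue and stage no test was made, and a size rule (4-fold, pseudocount of 50 CPM, at least 20 UMIs, 10 or 20 cells per library) was used in its place and tried on simulated counts. The simulated counts held counting error alone, without differences between cells. They therefore do not show how the rule fares with few cells. Other epithelial barcodes had EPCAM and neither CHGA nor PTPRC. Leukocyte barcodes had PTPRC and no EPCAM, and no CHGA where they serve as a background. Doublets were scored against simulated ones (2 per cell, 30 principal components, the highest scores at 0.8% per 1000 barcodes) and kept, marked. The study's limit of 40% mitochondrial UMIs was an alternative.

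The cells, gene lists (hormone, amine, granule, factor, sensor and cell type markers) and tests were chosen with earlier results of these data known. Named genes were those of the lists and the first 15 (against epithelium) or 10 (other comparisons) called genes in each direction. Others are said to have been chosen after their values were seen. Listed genes without an identifier in the files (SCT, NPW, NMB, SOX2, GPRC6A, OLFR78, MUC2, FCGBP, ZG16, GIF, MUC5AC, MUC6 and SH2D6) were not analysed here. Alternatives covered the CHGA limit, the filters, doublets, mixed barcodes, EPCAM, pseudocount, count minimum, scaling and depth. Tools were scikit-learn 1.9.0, SciPy 1.17.1, NumPy 2.4.6, matplotlib 3.10.9 and pandas 2.3.3 under Python 3.11.15.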

Additional observations from a re-analysis of the deposited data

Results flagged for a closer look

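Hormone levels of the same gene differed in the direction of the stage difference between tissues. The values are log2 ratios of AD over NB levels with 50 CPM added, so that where 1 stage had 0 UMIs they depend on that pseudocount and are no bound. GCG stood at 6.39 in the cecum and -9.35 in the colon, PYY at 6.1 in the cecum, -7.63 in the colon and -2.46 in the jejunum, and PPY at 7.45 in the cecum and -8.95 in the colon. MLN stood at -3.91 in the jejunum, where 123 of 125 NB UMIs came from 1 cell and the value turned to 0.11 with at least 20 UMIs of CHGA and to 0.0604 with mixed barcodes left out, and at 3.98 in the cecum, where 404 of 406 AD and all 12 NB UMIs came from 1 cell each. Each tissue and stage is 1 library of 8 to 14 cells here, and the difference between tissues was not tested. The AD colon cells with EPCAM numbered 5, all led by TAC1, and the 5 AD cecum cells with EPCAM were all marked as possible doublets. Without marked cells the cecum values of GCG, PYY and MLN turned to -2.99, -6.03 and -3.51. No AD cecum cell with EPCAM was left then, so these values give no direction of stage.

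Hormones were also found in barcodes that the CHGA rule left out, counted at 10 UMIs or more. In the NB abomasum these were 17 barcodes with GHRL, of which 13 had EPCAM and 9 had SCG3, and 4 with GCG (11 to 25 UMIs), all with EPCAM and no CHGA. NTS was found so in 4 NB duodenum barcodes (10 to 22 UMIs) and in 13 NB jejunum barcodes (11 to 107 UMIs), the latter without EPCAM, PTPRC or CHGA. CCK was found in 6 NB jejunum barcodes, all with PTPRC, and in 10 NB cecum barcodes, 9 with PTPRC. It was also found in 12 AD colon barcodes (11 to 195 UMIs), all with EPCAM and without CHGA or SCG3. MLN was found in 3 NB duodenum barcodes (105 to 1601 UMIs) and in 3 NB jejunum barcodes (623 to 2137 UMIs). The latter all had EPCAM and SCG3, with at most 8 UMIs of CHGA.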

How the results depend on the processing

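No paired analysis was possible because each tissue and stage has 1 library and no result comes from a test. The NB counts of cells and of cells with a hormone stayed within 1.5 times under every alternative run. Of 17 log2 ratios of AD over NB hormone levels at 4-fold or more, some reversed. With doublets removed the cecum gave -3.51 for MLN, -2.99 for GCG, -6.03 for PYY and -2.635 for TAC1, all positive before, and PPY in the cecum and SST in the colon had no UMI left in either stage. No AD cecum cell with EPCAM was left then, so these cecum values give no direction of stage. TAC1 in the cecum also reversed with mixed barcodes left out (-1.27) and without its richest cells (-0.57), and MLN in the jejunum with at least 20 UMIs of CHGA (0.11) and with mixed barcodes left out (0.0604). With EPCAM required all 17 kept direction and 4-fold size. Without the cell richest in the gene, 9 of 15 ratios kept both. AD cells numbered 32, and 52 with at least 5 UMIs of CHGA, 18 with at least 20, and 16 with doublets removed, with mixed barcodes left out or with EPCAM required. AD cells with 10 UMIs of a hormone, guanylins included, numbered 17, and 3 with doublets removed. The calls depended on the pseudocount by its construction. With 10 and 200 CPM, those against epithelium numbered 251 and 16 higher (61 at 50 CPM), those of the abomasum against the intestine 65 and 10 higher (27) and 50 and 4 lower (20), and those of the jejunum 65 and 9 higher (40) and 110 and 25 lower (67) in AD. With at least 5 UMIs of CHGA, calls against epithelium were 20 higher and 3 lower (9 before), and without the upper limit on genes 19 and 3, where the NB duodenum also had to meet the fold. With at least 5 UMIs the abomasum calls were 12 lower and the jejunum calls 78 higher in AD. With EPCAM required in the jejunum, chosen after seeing the data, 10 were higher in AD. A limit of 20 UMIs of CHGA, or doublets removed, left under 10 cells in the AD jejunum and gave no value. The leading hormone was kept in 7 of 10 libraries with doublets removed, where GCG tied with PPY in the NB colon (1942 UMIs each), and in 8 with each hormone counted without its richest cell. Of 58 hormone levels, 43 moved beyond their counting interval with doublets removed and 31 with EPCAM required. A comparison of NB small with large intestine was not run for lack of cells. Few cells and 1 library per group limit the precision.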

Other observations

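PTF1A, a factor known from the pancreas and from nerve cells, was seen in 5 abomasum cells and was chosen after its values were seen. It had 94 UMIs, all in the 27 abomasum cells with EPCAM and no hormone at 10 UMIs (590 CPM), and none in the ghrelin cells, selected or not.

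CHGA was also found at low levels in leukocyte barcodes, the genes here again chosen after their values were seen. At least 1 UMI was present in 222 of 12475 NB leukocyte barcodes (1.78%, interval 1.56 to 2.03) and in 164 of 29816 AD ones (0.550%, 0.469 to 0.641). Over all barcodes within the limits 272 of 10004 had a CHGA UMI in the NB abomasum and 153 of 8484 in the duodenum. It was 96 of 13105 in the NB jejunum and 193 of 7566 in the ileum. In the NB cecum, colon and rectum it was 101 of 6395, 139 of 4803 and 84 of 7628. The AD duodenum, jejunum, cecum and colon had 39 of 10380, 70 of 11082, 53 of 9651 and 62 of 9345. A CHGA UMI was thus not particular to leukocytes in either stage. Among leukocyte barcodes with 5 UMIs or more the order of the stages was the other way, with 3 NB and 32 AD barcodes. The 14 selected AD barcodes with PTPRC or CD3E and without EPCAM and SCG3 held 10 to 35 UMIs of CHGA (median 12.5) and no UMI of SCG2, SCG5, CHGB, PCSK1, CPE, INSM1, NEUROD1 or SCGN. Against the AD leukocyte barcodes without CHGA, 11 of 500 genes were at least 4-fold higher in them (2.20%), which include CHGA itself, by which they were chosen. The others with a gene symbol were PTI (104 UMIs in 3 barcodes), CTLA4 (51 in 7), CRABP1 (24 in 3), CCL20 (24 in 3), KIT (31 in 9), TNFRSF18 (32 in 12), SGK1 (37 in 5), HBG (32 in 3) and S100A4 (110 in 11). CD3E stood at 1118 CPM in them and 1714 CPM in the others.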
